A study of Mus musculus with 6 samples.

Results

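The interferon regulatory factors (IRFs) are transcription factors, several of which act in interferon signalling. Of their genes, 8 were followed here in the vestibular epithelium of mice exposed to an ototoxic nitrile. These members are Irf1, Irf2, Irf3, Irf4, Irf5, Irf7, Irf8 and Irf9. The members were found by symbol among the 52636 genes of the deposited table. Male 129S1/SvImJ mice drank either plain water (Control, 3 animals) or water with 30 mM 3,3'-iminodipropionitrile (IDPN, 3 animals) for 8 weeks. IDPN is toxic to the hair cells (HCs) of the inner ear. No genetic change is given for either group, and the methods give the ages as 2 to 4 months. Each library was made from 1 animal by pooling its 2 utricles and 6 cristae, so it holds sensory epithelium as a whole and not purified cells. The comparison asks which of these genes stand at a different RNA level after chronic exposure.

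IRF proteins share a DNA-binding domain that reads the interferon-stimulated response element (ISRE), a pair of GAAA repeats. IRF3 and IRF7 are kept inactive in the cytoplasm until sensors of foreign nucleic acid lead to their phosphorylation, after which they switch on interferon genes. Secreted interferon then acts through its receptors and Janus kinases on STAT proteins, and IRF9 with STAT2 is part of the ISRE-binding complex ISGF3. IRF1 is induced mainly through STAT dimers, which bind another element, GAS. IRF2 competes with IRF1 for its sites, and IRF4, IRF5 and IRF8 act mostly in lymphoid and myeloid cells. RNA levels say nothing about phosphorylation or position in the cell, which decide the activity of IRF3 and IRF7.

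Library size lay between 40474847 and 43566332 estimated counts, and every member but Irf4 had a count in all 6 libraries. The HC marker list stood lower after IDPN, with 7 of 10 genes called lower and its summed normalized count at 14673 to 15617 against 23138 to 26310 in Control. Supporting cell markers summed to 173631 to 216135 in IDPN against 255814 to 370637 in Control, with 1 of 8 called lower and 1 higher. Most of this sum came from Gjb6, Gjb2 and Otog (mean normalized counts 111944, 88976 and 43566 over the 6 libraries). The list itself was split, with 4 positive and 4 negative log2-Fold_Change values (median -0.15). Melanocyte markers summed to 14606 to 22129 in IDPN and 6366 to 14355 in Control, with 0 of 6 called. Over all genes tested, 2.32% were called higher and 3.42% lower. With 3 libraries against 3, the two-sided exact permutation test cannot give p under 0.10, and each of these 3 sums reached that smallest p (adjusted p = 0.267 over 8 lists). In whole tissue, fewer cells of a type and less RNA per cell cannot be told apart, and the part that cell make-up has in the IRF values was not tested. In the sample titles, the codes of all Control animals begin alike, IDPN 2 and IDPN 3 share another beginning, and IDPN 1 has one of its own. What these stand for is not stated, and between the groups it cannot be told apart from the exposure.

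Sequence upstream of Irf1, Irf2 and Irf7 is shown first, because Irf1 and Irf7 were upregulated and Irf2, the competitor of IRF1, was the single member with an ISRE core upstream. The stretches come from RefSeq promoter windows (GRCm38.p6), cut to the bases before the first annotated exon of the gene and written 5′ to 3′ on the strand of the gene. Capitals mark the matches to an ISRE core, GAAANNGAAA, or to a GAS element, TTCNNNGAA, searched on both strands. The Irf1 stretch is chr11:53769764-53770013 (plus strand), the Irf2 stretch chr8:46739495-46739731 (plus strand) and the Irf7 stretch chr7:141266482-141266674 (minus strand).
Irf1: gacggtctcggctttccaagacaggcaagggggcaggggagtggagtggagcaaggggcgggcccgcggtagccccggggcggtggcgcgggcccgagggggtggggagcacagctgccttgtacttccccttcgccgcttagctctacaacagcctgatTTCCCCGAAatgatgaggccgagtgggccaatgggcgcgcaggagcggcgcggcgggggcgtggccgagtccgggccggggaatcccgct
Irf2: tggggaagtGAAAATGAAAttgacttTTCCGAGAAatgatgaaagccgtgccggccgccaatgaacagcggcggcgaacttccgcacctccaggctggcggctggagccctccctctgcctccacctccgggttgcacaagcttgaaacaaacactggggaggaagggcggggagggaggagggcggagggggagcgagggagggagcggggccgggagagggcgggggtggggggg
Irf7: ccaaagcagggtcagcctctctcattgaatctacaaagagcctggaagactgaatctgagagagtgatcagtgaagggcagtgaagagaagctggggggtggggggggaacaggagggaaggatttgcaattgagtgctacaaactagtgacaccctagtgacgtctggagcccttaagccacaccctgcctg
In the full windows of 250 bases before each start site, Irf1 had a GAS match, TTCCCCGAA, 90 to 82 bases upstream. Irf2 had an ISRE core match, GAAAATGAAA, at 241 to 232 bases and a GAS match, TTCCGAGAA, at 224 to 216 bases upstream, the former inside an exon annotated to the noncoding gene Gm16675. Irf8 carried a pair of GAS matches, TTCTCGGAA and TTCAGAGAA, at 171 to 163 and 153 to 145 bases upstream. The windows of Irf3, Irf4, Irf5, Irf7 and Irf9 held neither set of letters. Of the 11 windows of the 8 members, 1 held an ISRE core and 3 a GAS match. Among 32851 windows of all genes, 2.98% held an ISRE core, 7.02% a GAS match and 0.332% both. The windows of Irf9 lie within exons of the longer Irf9 transcripts in the annotation used here and are not shown. A match is a description of letters and not a measured binding site.

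Of the 8 members, 3 were upregulated after IDPN (Irf9, Irf7 and Irf1) and 0 were downregulated. A gene was called when its DESeq2 Padj (Benjamini-Hochberg, over all genes tested) was under 0.05 and its fold change over 1.5. Over all 17650 genes tested, 2.32% were called higher and 3.42% lower. All 8 log2-Fold_Change values were positive, and for 5 of 8 members every IDPN library lay above every Control library, which was so for 11.1% of all genes tested. DESeq2 gave a Padj for 7 of the 8, all but Irf4. By the edgeR quasi-likelihood test, 2 of the 7 members tested were called higher, Irf7 and Irf9, against 1.02% of all genes tested.

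**Figure D1:**
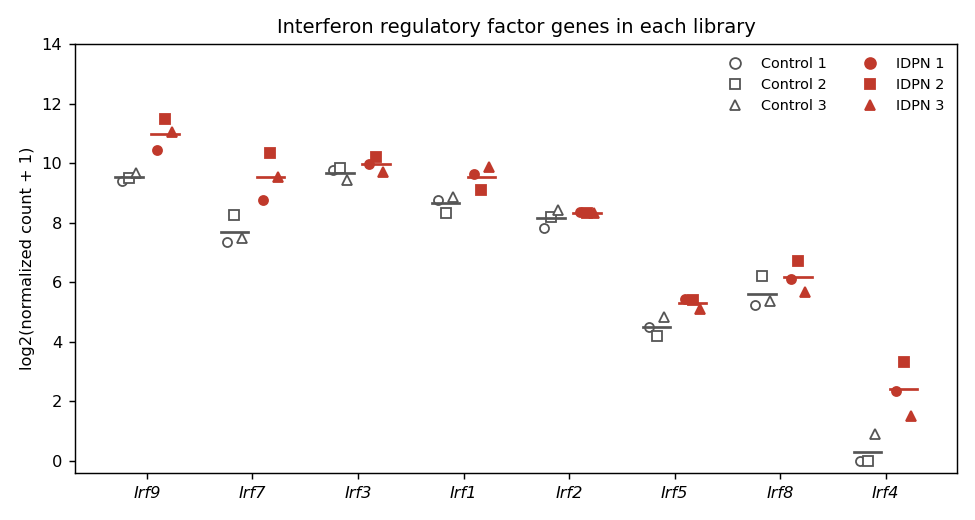
Level of each IRF gene in each library, as log2(normalized count + 1), with 3 Control (open) and 3 IDPN (filled) libraries and a line at the mean of the log2 values of each group. The filled points lie above all open points for Irf9, Irf7, Irf1, Irf5 and Irf4, and the groups overlap for Irf3, Irf2 and Irf8.

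Irf9, the DNA-binding subunit of ISGF3, was the member called under the most settings. The gene (ENSMUSG00000002325) lies on chromosome 14 at 55603571 to 55610030 (GRCm38). It stood at 675.5, 728.3 and 818.5 normalized counts in Control and at 1393, 2870 and 2105 in IDPN. The lowest IDPN library was well above the highest Control library, and the IDPN libraries differed more among themselves than the Control libraries did. The group means were 740.8 ± 72.3 and 2123 ± 739 (SD, n = 3 each). Irf9 rose by a log2-Fold_Change of 1.52 ± 0.24 (SE, 95% interval 1.05 to 1.98, DESeq2 Padj = 2.53e-08). It was called in all 12 alternative fits, the 6 that left out 1 library included, with values from 1.24 to 1.75. Stat2, which encodes a partner of IRF9 in ISGF3, rose as well. It stood at 382.0, 470.9 and 477.8 in Control and 685.2, 941.8 and 995.8 in IDPN (log2-Fold_Change 0.98 ± 0.21 SE, DESeq2 Padj = 0.00015). The groups did not overlap, and Stat2 was called in each of the 6 fits without 1 library.

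Irf7, which drives most type I interferon genes in a positive loop, had the steepest rise among the members called. The gene (ENSMUSG00000025498) lies on the minus strand of chromosome 7 at 141262706 to 141266481. Its normalized counts were 162.5, 303.6 and 177.0 in Control and 431.2, 1291 and 747.5 in IDPN. IDPN 2 stood far above the others and IDPN 1 nearest to Control, with no overlap of the groups. The group means were 214.4 ± 77.6 and 823.3 ± 435 (SD, n = 3 each). Irf7 rose by a log2-Fold_Change of 1.94 ± 0.34 (SE, 95% interval 1.28 to 2.60, DESeq2 Padj = 1.11e-06). Control 3 decided the call in 1 case, since without it the value was 1.82 with DESeq2 Padj = 0.0516, while without IDPN 2 the value was 1.46 and the call remained.

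Irf3, the constitutive partner of IRF7, is on chromosome 7 at 44997648 to 45002848 and was not called. It stood at 862.3, 917.6 and 692.2 in Control and 1002, 1179 and 827.8 in IDPN, with overlap between the groups. The log2-Fold_Change was 0.28 ± 0.20 (SE, 95% interval -0.10 to 0.67, DESeq2 Padj = 0.513). A ratio within each library needs no scaling between libraries, but the ratios here are not corrected for gene length. Irf7 to Irf3 was 0.189, 0.331 and 0.256 in Control and 0.430, 1.10 and 0.903 in IDPN. Every IDPN ratio was above every Control ratio, and the mean log2 ratio was higher by 1.58 (two-sided exact permutation p = 0.1, the smallest possible, adjusted p = 0.25 over 5 ratios). Irf9 to Stat2, the ratio of the DNA-binding subunit of ISGF3 to a partner, was 1.77, 1.55 and 1.71 in Control and 2.03, 3.05 and 2.11 in IDPN. Here too the groups did not overlap, with a mean log2 ratio higher by 0.49 (exact permutation p = 0.1, adjusted p = 0.25).

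Irf1, the activator of antigen presentation and of many interferon-gamma targets, rose less and its call was less stable. The gene (ENSMUSG00000018899) lies on chromosome 11 at 53770014 to 53778374, beside the upstream stretch with the GAS match printed above. Normalized counts were 431.8, 323.2 and 468.0 in Control and 796.1, 552.2 and 934.2 in IDPN. The groups did not overlap, but IDPN 2, the highest library for Irf7 and Irf9, was the lowest IDPN library for Irf1. The group means were 407.6 ± 75.4 and 760.8 ± 193 (SD, n = 3 each). Irf1 rose by a log2-Fold_Change of 0.90 ± 0.24 (SE, 95% interval 0.44 to 1.36, DESeq2 Padj = 0.00465). The call was lost without Control 2 (0.75, DESeq2 Padj = 0.0892), without IDPN 3 (0.72, DESeq2 Padj = 0.112) and with edgeR (quasi-likelihood adjusted p = 0.0569).

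Irf2, which occupies IRF1 sites mostly as a repressor, is on chromosome 8 at 46739732 to 46847458. It stood at 226.8, 289.7 and 339.9 in Control and at 325.2, 317.3 and 317.3 in IDPN. All IDPN values fell inside the Control range. The log2-Fold_Change was 0.16 ± 0.22 (SE, 95% interval -0.28 to 0.60, DESeq2 Padj = 0.804). The Irf1 to Irf2 ratio was 1.90, 1.12 and 1.38 in Control and 2.45, 1.74 and 2.94 in IDPN. These ranges overlapped, and the mean log2 ratio was higher by 0.70 (two-sided exact permutation p = 0.2, adjusted p = 0.25).

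**Figure D2:**
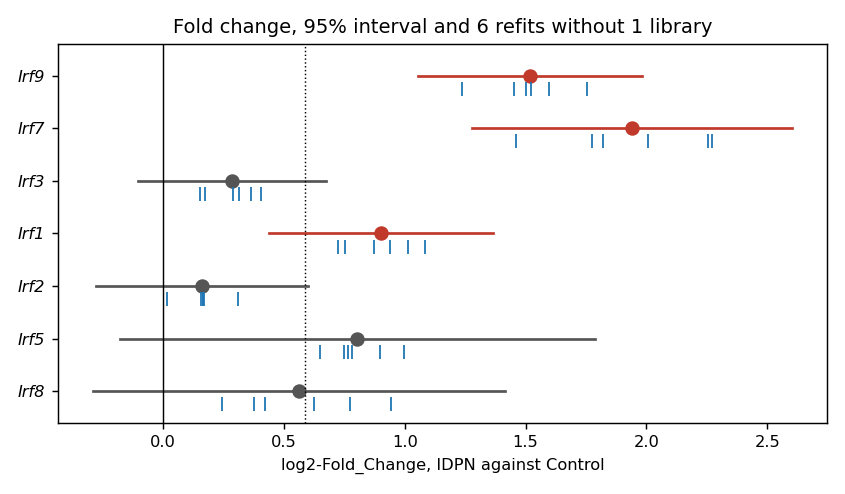
Dots are the DESeq2 log2-Fold_Change of IDPN against Control, lines the 95% interval, and blue ticks the values of 6 refits that each leave out 1 library, with red for called genes and a dotted line at a 1.5-fold change. The ticks of Irf9 span 1.24 to 1.75, those of Irf7 1.46 to 2.27 and those of Irf1 0.72 to 1.08, and Irf4, which had no Padj, is not drawn.

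Irf5, which acts downstream of Toll-like receptors in myeloid cells, was weakly expressed. It is on chromosome 6 at 29526625 to 29541871. Normalized counts were 21.8, 17.3 and 27.6 in Control and 42.2, 41.2 and 33.6 in IDPN. The groups did not overlap, yet at these counts the log2-Fold_Change of 0.80 ± 0.50 (SE, 95% interval -0.18 to 1.79) did not pass the test (DESeq2 Padj = 0.442). Irf8, needed for monocytes and dendritic cells, is on chromosome 8 at 120736358 to 120756694. It stood at 36.4, 73.9 and 40.04 in Control and 67.9, 103 and 50.4 in IDPN. Control 2 was above 2 of the 3 IDPN libraries, and the log2-Fold_Change was 0.56 ± 0.44 (SE, 95% interval -0.29 to 1.41, DESeq2 Padj = 0.577). Irf4, a factor of activated lymphocytes and plasma cells on chromosome 13 at 30749226 to 30766976, was near the limit of detection. Its estimated counts before normalization were 0, 0 and 1 in Control and 5, 9 and 2 in IDPN. The pooled counts, 16 against 1, gave a ratio of 13.8 after scaling for depth, with an exact 95% counting interval of 2.14 to 577 that covers counting error only. That interval takes reads as independent and leaves out the spread between animals. With animals as replicates, DESeq2 gave Irf4 a log2-Fold_Change of 3.70 ± 1.98 (SE, 95% interval -0.19 to 7.59) and no Padj.

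Markers of immune cells were read beside these 3 genes. Of 16 macrophage markers, 1 was called higher and 0 lower, and their summed normalized count was 2560 to 3437 in Control and 3114 to 4420 in IDPN (two-sided exact permutation p = 0.3, adjusted p = 0.48 over 8 lists). The marker called was Fcgr1, an Fc receptor that interferon-gamma induces, at 14.6, 17.3 and 9.79 in Control and 54.6, 27.1 and 54.1 in IDPN (log2-Fold_Change 1.72, DESeq2 Padj = 0.0386), a call that was left in 1 of 6 fits without 1 library (that without IDPN 2) and lost with edgeR. Of the list, 14 markers had a positive and 2 a negative log2-Fold_Change (median 0.52, against 0.02 over all genes tested). For 5 of 16 every IDPN library lay above every Control library, against 11.1% of all genes tested, of which 2.32% were called higher. Among the 2 negative ones was Csf1r, the receptor on which macrophages depend, which stood at 716.8, 759.5 and 571.2 in Control and 622.3, 770.1 and 638.3 in IDPN (-0.01, 95% interval -0.39 to 0.37). None of the 16 markers was at 0 in every library. Relative to the macrophage sum, Irf8 was higher by a mean log2 ratio of 0.29 (exact permutation p = 0.4, adjusted p = 0.4) and Irf5 by 0.55 (p = 0.2, adjusted p = 0.25, exact permutation), with overlap in both cases. Dendritic cell markers summed to 244 to 324 in Control and 288 to 403 in IDPN, with 0 of 4 tested genes called (exact permutation p = 0.2, adjusted p = 0.4). B and plasma cell markers summed to 303 to 437 and 306 to 445, with Cd79b at 0 in every library. T and NK cell markers summed to at most 12.1 in Control and 25.7 in IDPN, with Ncr1 and Nkg7 at 0, and neutrophil markers to at most 34.6 and 67.3, with Ly6g at 0. The exact permutation p of these last 3 sums was 0.8, 0.5 and 0.6 (adjusted p = 0.8, 0.667 and 0.686). The part of these cells in the levels of Irf4, Irf5 and Irf8 was not tested. Nor was that of melanocytes, whose marker sum, given above, was higher in every IDPN library than in any Control library.

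**Figure D3:**
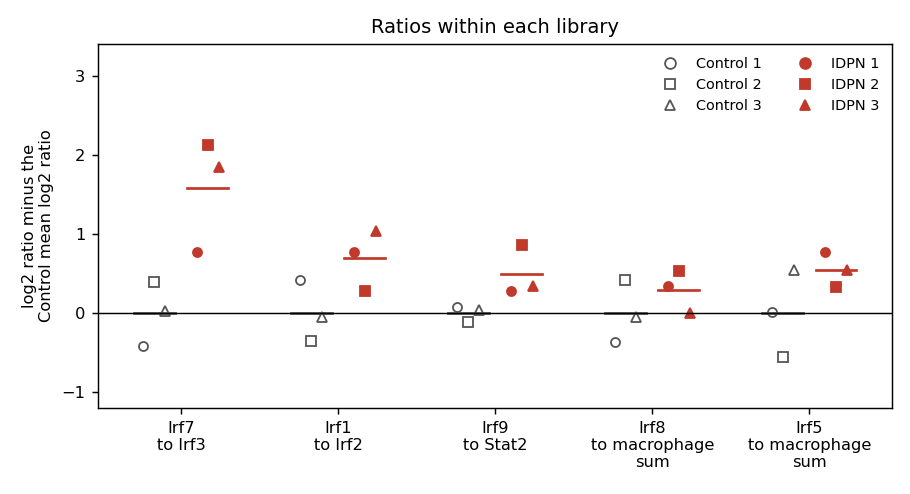
Ratios of normalized counts within each library, as the log2 ratio minus its Control mean, for 3 Control (open) and 3 IDPN (filled) libraries, with a line at the group mean. Irf7 to Irf3 and Irf9 to Stat2 separate the groups, while Irf1 to Irf2 and both ratios to the macrophage sum overlap.

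Apart from the ratios above, levels were compared between genes only per length, as normalized counts per kb of exon. In Control the order was Irf3 (239 ± 34.1, SD, n = 3), Irf9 (138 ± 13.4), Irf1 (103 ± 19.0), Irf7 (56.8 ± 20.5), Irf2 (38.6 ± 7.66), Irf5 (7.66 ± 1.77), Irf8 (7.10 ± 2.93) and Irf4 (0.060 ± 0.10). The ranges of Irf7 and Irf2 overlapped, as did those of Irf5 and Irf8, and all other neighbours in this order were apart. In IDPN, Irf9 (394 ± 137), Irf3 (291 ± 51.0), Irf7 (218 ± 115) and Irf1 (191 ± 48.6) led. Neighbours among these 4 overlapped, and Irf3 stood above Irf9 in all 3 Control libraries and in IDPN 1, but below it in IDPN 2 and IDPN 3. Irf1 was apart from Irf2 (43.3 ± 0.62), and Irf5 (13.4 ± 1.62), Irf8 (10.5 ± 3.83) and Irf4 (1.02 ± 0.75) closed the order. Of the summed level of the 8 members per kb, Irf3 made up 40.6% on average in Control and 25.5% in IDPN, Irf9 23.4% and 33.2%, and Irf7 9.54% and 17.9%. The share of Irf1 was 17.5% in Control and 17.3% in IDPN. The exon union of Irf7 in the annotation covers the whole gene, introns included, so that its level per kb is understated, and long transcript models act in the same way for Irf9.

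**Figure D4:**
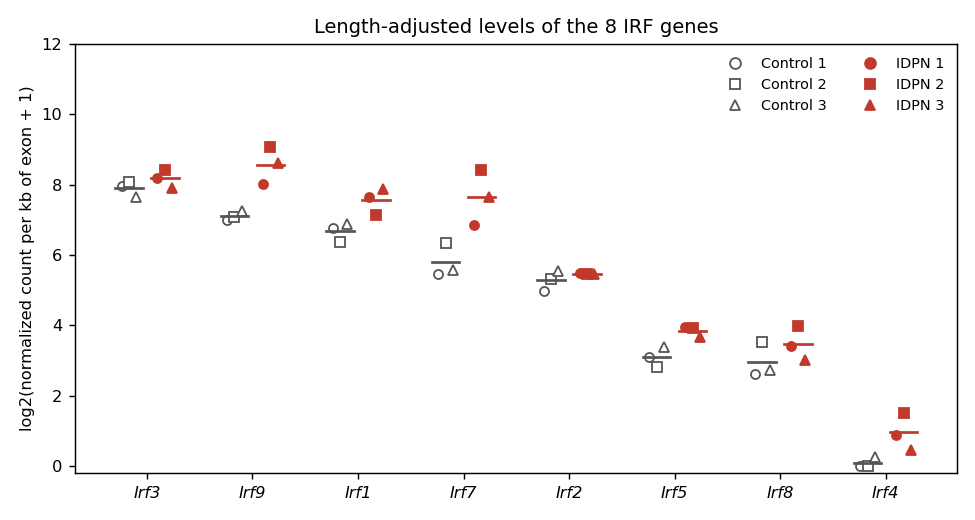
Levels of the 8 IRF genes, ordered by their Control mean, as log2(normalized count per kb of exon + 1) in 3 Control (open) and 3 IDPN (filled) libraries, with a line at the group mean. Irf3 led in Control, and in IDPN the points of Irf9 and Irf7 reach into the range of Irf3.

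Of the genes that act upstream of the IRFs, none for interferons or their receptors was called. The sensor genes Ifih1 and Ddx58 and the kinase gene Chuk were called higher, and the Toll-like receptor gene Tlr4 lower. The lists below were written with earlier results of these data known, and their counts are to be read against the 2.32% called higher and 3.42% called lower, and against a median log2-Fold_Change of 0.02 over all genes tested. None of the 10 interferon genes looked for, Ifnb1 and Ifng among them, had a count in any library, which says only that no read was assigned to them at this depth. Of the 6 interferon receptor genes, 0 were called (median -0.02). Ifnar2, a chain of the type I receptor, stood at 3437, 2984 and 2266 in Control and 2599, 2971 and 2539 in IDPN (log2-Fold_Change -0.10, 95% interval -0.46 to 0.26). Ifngr1, a chain of the interferon-gamma receptor, was at 2520, 2483 and 2434 in Control and 2627, 2823 and 2538 in IDPN (0.10, 95% interval -0.18 to 0.39). Neither receptor chain was called, and both were well covered in every library. Of 4 genes read for the JAK-STAT relay, 1 was called higher, Stat2, and 0 lower, and the kinase gene Jak1 had a log2-Fold_Change of -0.11 (95% interval -0.40 to 0.19).

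Among 25 tested genes for the sensors, adaptors and kinases that activate IRF3, IRF5 and IRF7, 3 were called higher and 1 lower (median 0.32), and for 7 every IDPN library lay above every Control library, against 11.1% of all genes tested. Ifih1, which encodes the RNA sensor MDA5, stood at 452.4, 422.4 and 402.1 in Control and 597.5, 691.8 and 851.1 in IDPN (log2-Fold_Change 0.75 ± 0.20 SE, DESeq2 Padj = 0.00558). Ddx58, which encodes the sensor RIG-I, stood at 418.4, 514.8 and 488.4 in Control and 613.2, 796.2 and 939.8 in IDPN (0.72 ± 0.21 SE, DESeq2 Padj = 0.0137). Chuk, the kinase IKK alpha, was the other gene called higher (0.72 ± 0.20 SE, DESeq2 Padj = 0.00786). The list had 1 to 4 higher calls in fits without 1 library and 1 with edgeR, which called 1.02% of all genes it tested higher. Ddx58 lost its call without Control 1, IDPN 2 or IDPN 3, Chuk without Control 1 or IDPN 2, and Ifih1 without IDPN 3 (0.60, DESeq2 Padj = 0.083). Tlr4, the receptor for bacterial lipopolysaccharide, was at 271.7, 292.0 and 342.5 in Control and 187.0, 118.5 and 158.6 in IDPN, and fell by 0.96 on the log2 scale (DESeq2 Padj = 0.00431), a call that was lost with total-count size factors (-0.71, DESeq2 Padj = 0.215). Mavs, the adaptor that RIG-I and MDA5 share, had a log2-Fold_Change of -0.02 (95% interval -0.30 to 0.26). Of 11 tested partner and co-regulator genes of the IRFs, 0 were called (median 0.33).

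Of 13 negative regulators, 1 was called higher and 1 lower (median 0.20). Usp18, which removes ISG15 and blocks the type I receptor, stood at 126.1, 99.3 and 107.7 in Control and 497.4, 1163 and 1419 in IDPN. On the log2 scale this was a rise of 3.21 ± 0.31 (SE, DESeq2 Padj = 1.12e-21). By contrast Fbxw7, the substrate receptor of a ubiquitin ligase with many targets outside interferon signalling, was at 1616, 1708 and 1617 in Control and 306.2, 205.8 and 342.5 in IDPN. It fell by 2.53 on the log2 scale (DESeq2 Padj = 1.15e-31). The HC markers, of which 7 of 10 were called lower with a log2 ratio of -0.72 for their sum, moved the same way, and their part in the fall of Fbxw7 was not tested.

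Of 23 tested ISRE target genes, 12 were called higher and 0 lower, with a median log2-Fold_Change of 1.62. For 18 every IDPN library lay above every Control library, against 11.1% of all genes tested. Without 1 library, 8 to 15 of the targets were called, the lowest number without IDPN 3. Of those it tested, edgeR called 5 higher, against 1.02% of all genes it tested. Zbp1, a sensor of Z-form nucleic acid, went from 1.21, 2.31 and 0 in Control to 4.97, 15.1 and 54.1 in IDPN (log2-Fold_Change 4.48 ± 1.24 SE, DESeq2 Padj = 0.00909). Ifit3, which binds and restrains viral RNA together with IFIT1, stood at 544.6, 1027 and 463.5 in Control and 1242, 2860 and 14053 in IDPN (3.16 ± 1.03 SE, DESeq2 Padj = 0.0383). The copy beside it, Ifit3b, had 139.5, 341.7 and 109.4 in Control and 467.6, 905.6 and 4659 in IDPN (3.35 ± 1.03 SE, DESeq2 Padj = 0.0235), and the split of reads between these near-identical genes is uncertain. IDPN 3 stood far above the other libraries for this pair, and Ifit3 was called in 1 of the 6 fits without 1 library (that without IDPN 1), with a value of 1.60 without IDPN 3. Ifit3b lost its call without Control 1 or Control 3 and with edgeR (quasi-likelihood adjusted p = 0.051), and its value was 1.80 without IDPN 3. Without that library Zbp1 stood at 3.14 with no Padj. Mx2, an antiviral GTPase, was at 63.1, 63.5 and 23.1 in Control and 124.1, 415.7 and 531.9 in IDPN (2.84 ± 0.72 SE, DESeq2 Padj = 0.00282, and 0.052 without IDPN 2).

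The IRFs called and the ISRE targets did not all peak in the same IDPN animal. Relative to the Control mean, Irf9 stood 1.88-fold, 3.87-fold and 2.84-fold higher in IDPN 1, 2 and 3, and Irf7 2.01-fold, 6.02-fold and 3.49-fold. Both were highest in IDPN 2 and lowest in IDPN 1. Irf1 stood 1.95-fold, 1.36-fold and 2.29-fold higher and was highest in IDPN 3. Of the 23 tested ISRE targets, 15 were highest in IDPN 3, 7 in IDPN 2 and 1 in IDPN 1. Of all 410 genes called higher, 34.6% were highest in IDPN 3, 46.6% in IDPN 2 and 18.8% in IDPN 1. With 3 animals this order is a description.

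**Figure D5:**
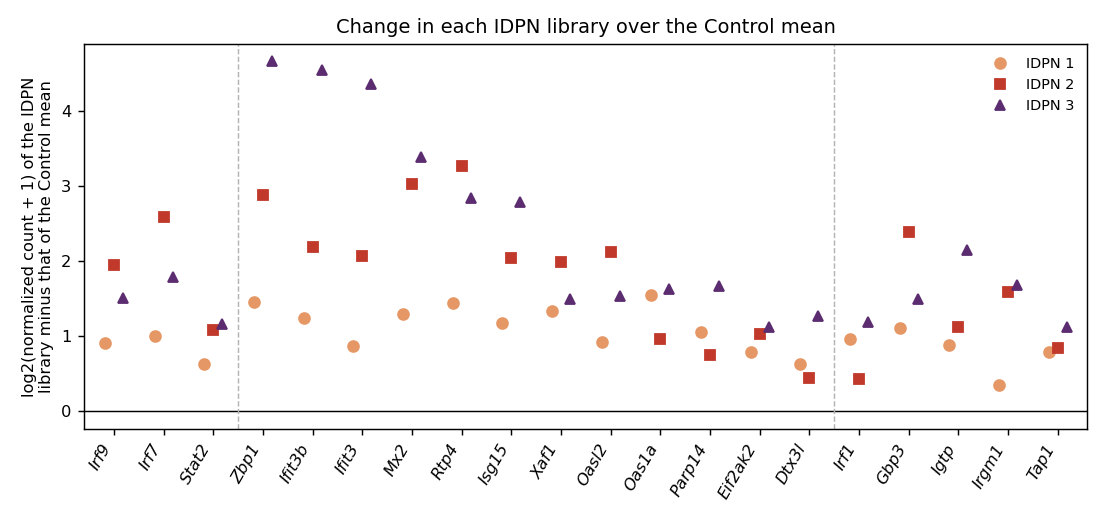
For each gene, log2(normalized count + 1) of each IDPN library minus that of the Control mean, with Irf9, Irf7 and Stat2 on the left, the 12 ISRE targets called higher in the middle, and Irf1 with 4 IRF1-linked genes called higher on the right. All points lie above 0, IDPN 1 is the lowest point for Irf9 and Irf7, and IDPN 3 is far above the others for Ifit3 and Ifit3b.

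Of 23 tested genes linked to IRF1 in antigen presentation and in the interferon-induced GTPases, 4 were called higher and 0 lower, with a median log2-Fold_Change of 0.22. Members of the GTPase families led. Gbp3 stood at 406.3, 362.4 and 351.4 in Control and 806.1, 1970 and 1060 in IDPN (log2-Fold_Change 1.78 ± 0.28 SE, DESeq2 Padj = 2.53e-08). Igtp was at 493.6, 503.2 and 493.8 in Control and 915.3, 1089 and 2213 in IDPN (1.5 ± 0.28 SE, DESeq2 Padj = 5.76e-06). Irgm1 was at 1267, 1378 and 1556 in Control and 1793, 4224 and 4525 in IDPN (1.33 ± 0.27 SE, DESeq2 Padj = 7.24e-05, and 0.0578 without Control 3). The peptide transporter gene Tap1 was the one antigen presentation gene called, at 275.3, 227.4 and 291.8 in Control and 461.0, 476.9 and 581.4 in IDPN (0.93 ± 0.21 SE, DESeq2 Padj = 0.000465). The class I genes themselves were not called, with a log2-Fold_Change of 0.36 for H2-K1 (95% interval -0.09 to 0.80) and 0.24 for H2-D1 (95% interval -0.19 to 0.66).

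Profiles over the 6 libraries were compared by the root mean square difference of centred log2(normalized count + 1) values, among genes with a mean of at least 100. The measure includes the group difference that the calls used and is a description. Profiles were not scaled, so a rise of another size counts as distance, and a gene with little change can lie nearer than one that rose more. The profile nearest to Irf9 was that of Oasl2, an ISRE target (0.17 log2 units), and that of Gbp3 was also near (0.22). Oasl2 was also nearest to Irf7 (0.28), followed by Bst2 (0.32), the tetherin gene, and Lgals3bp (0.34). Neither Bst2 nor Lgals3bp was called (DESeq2 Padj = 0.118 and 0.0908). Irf9 was at place 5 from Irf7 among 11769 genes compared. The genes nearest to Irf1 were others, Homer1 (0.08), a synaptic scaffold gene, Sh3tc1 (0.11) and Usp1 (0.14), a deubiquitinase gene. Homer1 and Sh3tc1 were not called (DESeq2 Padj = 0.102 and 0.172), and Usp1 was called higher (DESeq2 Padj = 0.0033). Between Irf1 and Irf9 the difference was 0.58, which put Irf9 at place 6300 from Irf1 and Irf1 at place 665 from Irf9. Between Irf1 and Irf7 it was 0.91, which put Irf7 at place 11215 from Irf1 and Irf1 at place 1302 from Irf7. These places reflect the size of each rise as well as its pattern, and Irf1, Irf7 and Irf9 all rose without overlap of the groups. 

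Of the 16 nearest protein-coding neighbours, 13 were tested, 2 were called higher and 0 lower. Over all genes tested, 2.32% were called higher and 3.42% lower. Enpp6, a lipid phosphodiesterase gene 139429 bases from Irf2, rose by a log2-Fold_Change of 0.78 ± 0.17 (SE, DESeq2 Padj = 0.000231). Rec8, a cohesin gene 8007 bases from Irf9, had low counts, 2.43, 4.62 and 6.23 in Control and 14.1, 31.1 and 26.1 in IDPN (2.40 ± 0.81 SE, DESeq2 Padj = 0.0489), and was called in 1 of 6 fits without 1 library, that without Control 3. Several members share exon bases with another gene, and without strand information reads there cannot be told apart. The shared stretch was 123 bases for Irf9 with Rnf31, 45 bases for Irf7 with Phrf1, 135 bases for Irf1 with Gm17334, 88 bases for Irf3 with Bcl2l12 and 411 bases for Irf5 with Tnpo3. The partner genes had log2-Fold_Change values of -0.03 (Rnf31), 0.10 (Phrf1), -0.15 (Bcl2l12) and -0.02 (Tnpo3), none called, and Gm17334 had normalized counts of at most 1.87.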

How the data were processed

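Vestibular epithelium from 3 Control and 3 IDPN mice was profiled by SMART-seq2, an oligo-dT protocol which keeps no strand information and adds no molecular identifiers. Amplified copies therefore cannot be told apart, and counting intervals may be too narrow even for counting error. They also leave out differences between animals. The labels give 1 batch. The authors aligned reads with STAR 2.5.3a to GRCm38 and deposited RSEM 2.3.0 expected counts, that is estimated counts per gene, which were whole numbers with no normalization, with versions from the submitters' processing notes. RSEM divides reads shared by similar genes, so levels of near-identical copies are uncertain. Total counts per library were 40474847 to 43566332, which leaves genes with few counts imprecise.

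All genes were fitted with DESeq2 1.42.0 (R 4.3.3, Wald test, median-of-ratios size factors, independent filtering), and a call needed Padj under 0.05 and a fold change over 1.5, thresholds taken from the study. Normalized counts are counts divided by the size factor. Alternatives were edgeR 4.0.16 (quasi-likelihood), total-count size factors, a filter of 10 counts in 3 libraries, both DESeq2 filters off, a test against a 1.5-fold change, and fits without each library. Single values used two-sided exact permutation tests (scipy 1.17.1), and ratios were also computed with 0.5 counts added to each term. Scripts were tested on simulated data. There the share of false calls was above the nominal level with DESeq2 and smaller with edgeR, so DESeq2 calls near the threshold are less certain. Exon lengths, positions and overlaps are from GENCODE on GRCm38, and promoters from RefSeq.

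The members and lists were chosen with earlier results of these data known. Genes were eligible for naming if they were members, among the 4 called genes with the largest change or the 2 most abundant of a list, in a ratio, the nearest neighbours, or the 3 nearest profiles. Not every eligible gene is reported here, and overlapping genes were added after their values were seen.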

Additional observations from a re-analysis of the deposited data

How the results depend on the processing

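The number of members called higher was 2 to 3 and the number called lower 0 in all 12 alternatives. The call of Irf9 remained in each. Irf7 was called in 11 of 12, with a log2-Fold_Change of 1.46 to 2.27 without 1 library, and lost its call without Control 3 (1.82). Irf1 was called in 8 of 12, with 0.72 to 1.08 without 1 library, and lost its call with edgeR (0.90), against a 1.5-fold change (0.90), without Control 2 (0.75) and without IDPN 3 (0.72). Irf2, Irf3, Irf5 and Irf8 were called in 0 of 12. Total-count size factors moved the median of all genes by 0.25 (log2). Under them the log2 ratio of the marker sums was 0.54 for macrophages, 0.62 for dendritic cells, 0.31 for B cells, -0.48 for HCs and -0.42 for supporting cells, 2 negative regulators and 7 IRF1-linked genes were called higher, and 0 activators lower. The values of Jak1 (0.14), Ifnar2 (0.17), Mavs (0.23) and Csf1r (0.25), which were not called, turned positive. Against a 1.5-fold change, 0 JAK-STAT genes, 0 activators, 3 ISRE targets and 1 IRF1-linked gene were called higher, and 0 activators lower, since that test asks for more. With edgeR, 1 activator and 5 ISRE targets were called higher, against 1.02% of all genes it tested. The cause of this difference between the tests was not tested. Without 1 library, 1 to 4 activators, 0 to 1 partner genes and 1 to 2 negative regulators were called higher, and values around 0 changed sign for Ifnar2 (-0.247 to 0.038), Csf1r (-0.125 to 0.068) and C1qb, a complement gene of macrophages (-0.234 to 0.283). All 5 ratios kept their direction in 7 alternatives each, but with 3 libraries a group none could pass the threshold. Zbp1 had no Padj without IDPN 3. No paired analysis was possible because the labels give no replicate numbers. Depth limits Irf4, Irf5 and Irf8, whose counts were low.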
